A study of Caenorhabditis elegans with 2 samples.

Results

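The 8 genes described here encode the DREAM complex of Caenorhabditis elegans, and they were lin-35, efl-1, dpl-1, lin-9, lin-37, lin-52, lin-53 and lin-54. They are 8 of 19973 protein-coding genes on the nuclear chromosomes, and they were taken by name. For each gene, every ChIP-seq summit of SPR-3 in the gene body and 5 kb either side was collected. SPR-3 is a protein with C2H2 zinc fingers, and loss of spr-3 is known to suppress the defects caused by loss of the presenilin gene sel-12. Its chromatin immunoprecipitation was done with an anti-GFP antibody on whole worms of strain OP703, which carry unc-119(tm4063) and the transgene wgIs703 with spr-3::TY1::EGFP::3xFLAG and unc-119(+). Both libraries came from L4 larvae of mixed sex at 49 hours, synchronised by starving L1 larvae after bleaching, and form 1 group of 2 biological replicates. The tagged protein comes from a transgene and the chromatin from whole animals, so no summit can be assigned to a tissue. There is no second condition, and no test between samples was possible.

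DREAM joins a pocket protein of the retinoblastoma family and an E2F-DP pair to the MuvB core, and it is known as a repressor of cell cycle genes and, in somatic cells of the worm, of germline genes. In C. elegans lin-35 encodes the pocket protein, efl-1 the E2F-like factor and dpl-1 its DP partner. The genes lin-9, lin-37, lin-52, lin-53 and lin-54 encode the MuvB core, in which LIN-54 binds DNA and LIN-53 is a histone-binding protein that other chromatin complexes also use. Several of these genes belong to the synMuv B class, whose loss together with a synMuv A gene gives worms extra vulvae.

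SPR-3 peaks stood just upstream of 5 of the 8 genes. The authors' set of peaks that passed an irreproducible discovery rate threshold (945 peaks, called thresholded below) had a summit in the promoter windows of lin-54, lin-53, lin-9, efl-1 and lin-35, where a promoter window runs from 1000 bp upstream to 200 bp downstream of the annotated 5′ end. That is 62.5% of the 8 genes, beside 2.83% of all protein-coding genes (566 of 19973). The promoter windows of dpl-1, lin-37 and lin-52 held none. Over the gene body and 5 kb either side the same 5 genes had a thresholded summit, and no other thresholded summit was found there, while 12.1% of all genes had one in such a span. The 8 genes were chosen with earlier results of these data known, so the counts describe them and were not tested.

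The signal of a peak is the authors' value for ChIP against control, and ranks count from the highest signal in a list. In the pooled list of 30000 candidate intervals the peaks were those of lin-54 (signal 575.3, rank 26), lin-53 (440.8, rank 54), lin-9 (353.6, rank 89), efl-1 (200.3, rank 380) and lin-35 (141.6, rank 883). The lowest signal of the thresholded set was 138.04 and the highest outside it 138.03, so the lin-35 peak lay close to that limit. The authors' −log10 q-value was 3.10 at efl-1 and the 3 MuvB genes, and 1.73 at lin-35, where the set began at 1.69. The highest value of the set was also 3.10. It was the same at rank 26 and at rank 380, so it does not set these peaks apart by strength. The median over the 5 genes was 353.6, beside 196.2 (interquartile range 160.7 to 266.5) over all 566 genes with a thresholded promoter summit. In this order the 3 highest peaks stood at MuvB genes and the 2 lowest at the E2F and pocket protein genes. But the MuvB genes lin-37 and lin-52 had no thresholded peak, nor had the DP gene dpl-1. The summits at lin-54 and lin-53 also lay nearer to the 5′ ends of rpl-12 and nra-2. Both calls were lost when a summit counted only for the nearest gene, which left lin-9 as the only MuvB gene called.

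**Figure D1:**
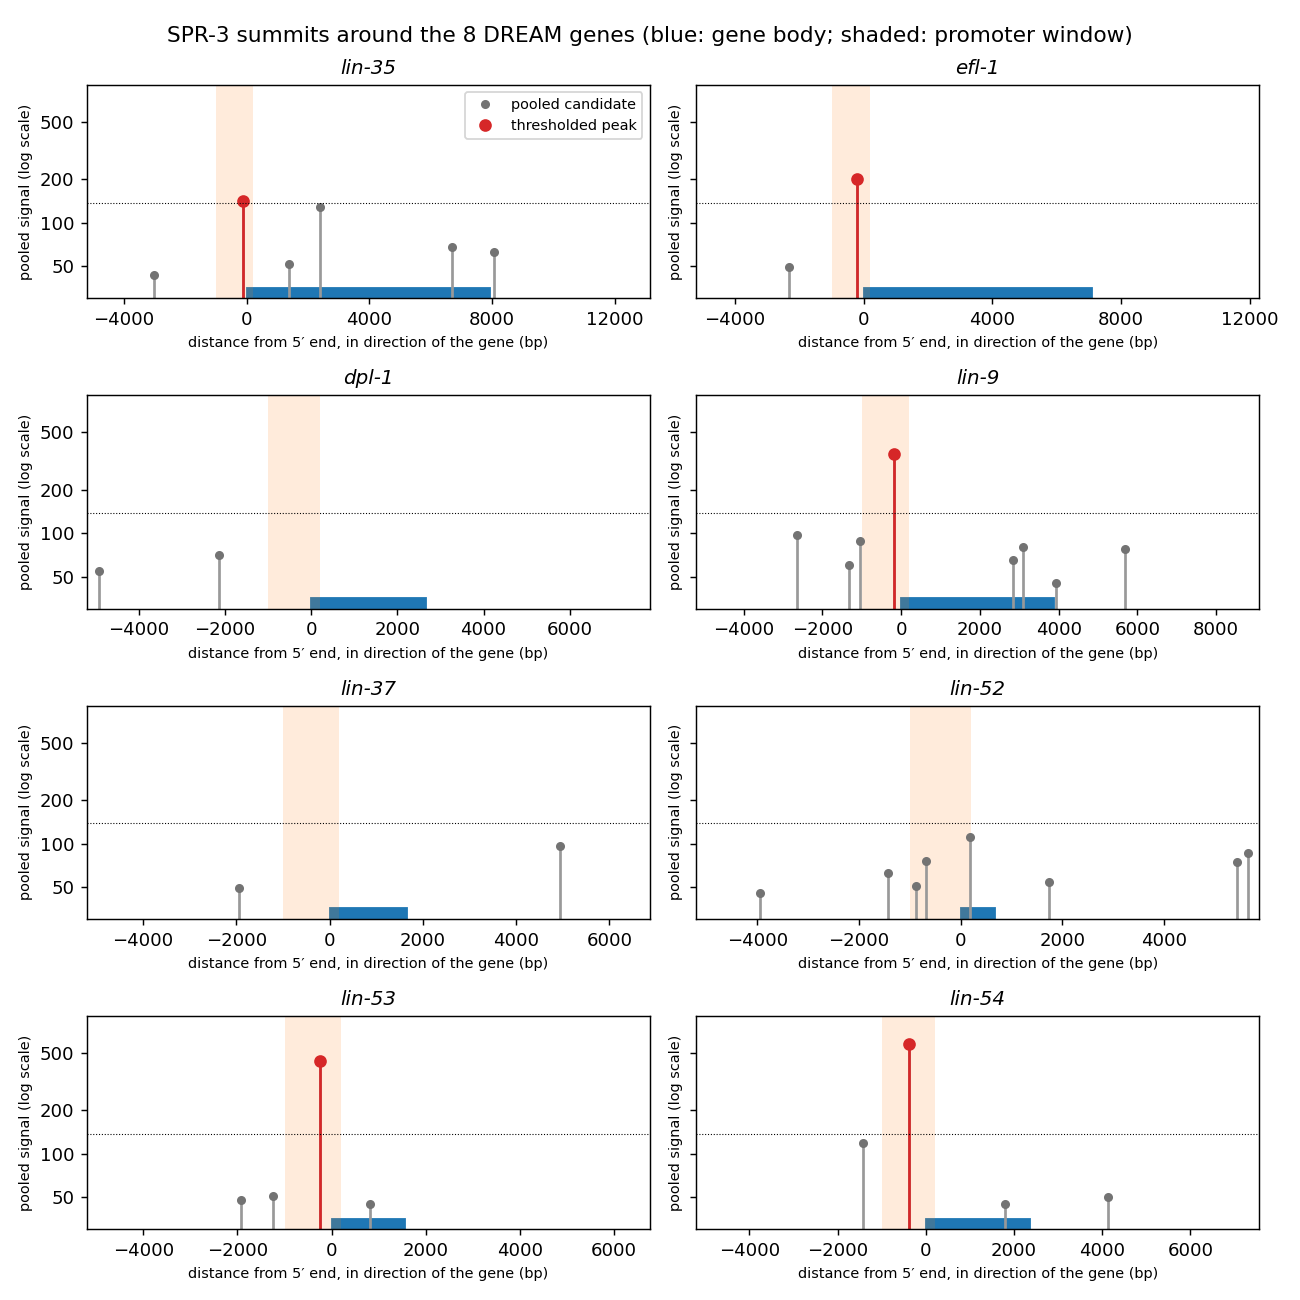
Pooled signal (log scale) of every candidate summit against its distance in bp from the 5′ end of each of the 8 genes, read in the direction of the gene. Grey stems are pooled candidates, red stems thresholded peaks, the blue bar the gene body, the shaded band the promoter window and the dotted line the lowest signal of the thresholded set (138.0). The 5 red stems, from 141.6 to 575.3, all stand in the shaded band upstream of the gene.

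The sequences below reach 100 bp to either side of the pooled summits at efl-1, lin-9 and lin-54. They cover some, but not all, of the promoters with a thresholded peak. They are shown so that their letters can be set beside the E2F and CHR words that E2F-DP and LIN-54 are known for. They were read from the RefSeq WBcel235 genome, whose chromosome names and lengths fit the ce11 lists, and are given 5′ to 3′ on the strand of the gene with the summit at the middle base. Capitals mark the 8-letter words named in the next paragraph, and a word on the other strand appears as its reverse complement. The windows are chrV:16965776-16965976 (minus strand), chrIII:8904204-8904404 (minus strand) and chrIV:13240574-13240774 (plus strand).
efl-1: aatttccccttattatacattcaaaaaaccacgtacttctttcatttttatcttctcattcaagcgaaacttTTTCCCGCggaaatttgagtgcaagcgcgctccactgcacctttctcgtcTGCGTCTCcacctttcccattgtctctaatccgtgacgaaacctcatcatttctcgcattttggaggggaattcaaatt
lin-9: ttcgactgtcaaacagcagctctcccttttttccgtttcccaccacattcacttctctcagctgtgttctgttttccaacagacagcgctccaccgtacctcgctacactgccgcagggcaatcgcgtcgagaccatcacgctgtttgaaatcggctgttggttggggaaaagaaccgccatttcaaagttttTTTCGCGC
lin-54: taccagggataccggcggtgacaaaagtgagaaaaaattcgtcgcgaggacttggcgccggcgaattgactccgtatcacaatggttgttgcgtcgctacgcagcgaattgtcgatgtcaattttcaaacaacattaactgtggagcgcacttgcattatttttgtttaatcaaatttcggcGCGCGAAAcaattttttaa

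These 3 windows held an E2F-type word, at different distances from the summit, and the window of the weaker pooled candidate at lin-52, which was also searched, held none. The words searched on both strands were TTTCCCGC, TTTGGCGC, TTTCGCGC and TTTGCCGC (E2F type), TTTGAA and TTCGAA (CHR type, the second a palindrome), and GAGACGCA and GCGCCAGC, which earlier results of these data had found at SPR-3 summits. No 8-letter word contains another, and the words did not overlap in these windows. At efl-1, TTTCCCGC ended 21 bp before the summit on the strand of the gene, and GAGACGCA lay 22 to 29 bp beyond it on the other strand. At lin-9, TTTCGCGC lay 93 to 100 bp beyond the summit, so it ended on the last base of the window. A window centred on the replicate 1 summit of lin-9 would have left that word out. At lin-54 the same word lay 82 to 89 bp beyond the summit on the other strand. One or more of the 4 E2F-type words occurred in 65 of 945 thresholded windows (6.88%), in 33 of 437 windows at thresholded promoter summits (7.55%) and in 3.64% of 19973 gene windows of the same length centred 200 bp upstream of the 5′ end. GAGACGCA occurred in 9.52% of thresholded windows and 2.32% of gene windows. GCGCCAGC, present in 8.70% of the promoter windows with a summit, was in none of the 3. TTTGAA was in all 3, and in 50.3% of gene windows and 30.3% of thresholded windows, and TTCGAA in none of the 3. The lin-52 window held TTTGAA and TTCGAA. The called promoters of lin-35 and lin-53 were not searched, so these 3 windows do not stand for all DREAM promoters with a peak. Base composition differs between these sets: the median GC content was 45.8% at thresholded summits and 33.8% in gene windows, and 41.8% at efl-1, 51.2% at lin-9 and 44.3% at lin-54. Its part in the word counts was not tested.

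The MuvB gene lin-54 had the highest peak of the group. Its interval covered chromosome IV 13240578 to 13240793, between genes, with the summit 370 bp upstream of lin-54. The signal was 316.8 in replicate 1 (rank 21) and 256.6 in replicate 2 (rank 35), and the replicate summits were 2 bp apart. Both replicates thus placed this peak among their 35 highest candidates. The promoter is shared with rpl-12, which encodes a protein of the large ribosomal subunit and is read from the opposite strand, with 393 bp between the 5′ ends. The summit lay 23 bp upstream of rpl-12, far nearer to it than to lin-54. A weaker pooled candidate 1432 bp upstream of lin-54 (118.5, rank 1482) lay in an exon of rpl-12 and 198 bp upstream of tag-115. It was found in both replicates, at ranks 3321 and 1489.

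At lin-9, which encodes a core MuvB subunit, the peak belonged to no other promoter window. The interval covered chromosome III 8904230 to 8904356, and the summit lay 173 bp upstream of lin-9 and between genes. The signal was 182.0 in replicate 1 and 177.2 in replicate 2, at rank 96 in both, with replicate summits 30 bp apart. The next gene upstream, unc-32, which encodes a subunit of the vacuolar proton pump, is read from the opposite strand and starts 1484 bp away. The lin-9 region held 8 pooled candidates in 13.9 kb, or 5.76 per 10 kb beside 2.99 over the genome. The other 7 had signals from 44.9 to 96.6. Of these, 2 lay in introns of lin-9 (65.0 and 79.9) and 2 in the promoter window of unc-32 (60.6 and 87.8), and the highest, 96.6 at rank 3019, lay in an intron of unc-32.

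The E2F gene efl-1 had a peak that the replicates ranked differently. Its interval covered chromosome V 16965661 to 16966090, and its summit at 16965876 lay between genes, upstream of the efl-1 5′ end at 16965675. The signal was 126.1 in replicate 1 (rank 232) and 77.7 in replicate 2 (rank 909), and the summits were 21 bp apart. The peak was thus well inside the highest 945 candidates of replicate 1 and just inside those of replicate 2. The window of fbxa-90, an F-box gene on the opposite strand, also held this summit, 938 bp upstream of its 5′ end. The efl-1 region was otherwise bare: 1 other pooled candidate lay in its 17.1 kb, in an intron of fbxa-90 (49.2, rank 23720).

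The remaining MuvB gene with a peak was lin-53. Its interval covered chromosome I 9619886 to 9620095, with the summit 238 bp upstream of lin-53. The signal was 218.7 in replicate 1 (rank 64) and 209.8 in replicate 2 (rank 57), with summits 18 bp apart. The ranks were close in both replicates. On the opposite strand nra-2, whose product resembles the endoplasmic reticulum protein nicalin, starts 467 bp from lin-53, and the summit lay 229 bp upstream of it, about midway between the pair. The paralogous histone-binding gene rba-1 lies downstream on the same strand and had no thresholded promoter summit.

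The pocket protein gene lin-35 had the weakest of the 5 peaks. Its interval covered chromosome I 5807361 to 5807790, with the summit 133 bp upstream of lin-35 and 285 bp upstream of vps-51, a gene for a vesicle tethering subunit on the opposite strand whose 5′ end is 418 bp away. The signal was 62.5 in replicate 1 (rank 1697) and 78.2 in replicate 2 (rank 889), and the summits were 8 bp apart. Only replicate 2 placed it among its highest 945 candidates. A candidate of nearly the same strength lay inside the gene, 2398 bp downstream of the 5′ end in an intron of lin-35 (129.4, rank 1129). That summit was also 105 bp upstream of C32F10.4, a gene within lin-35 on the opposite strand, and the replicates ranked it 2724 and 1076.

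**Figure D2:**
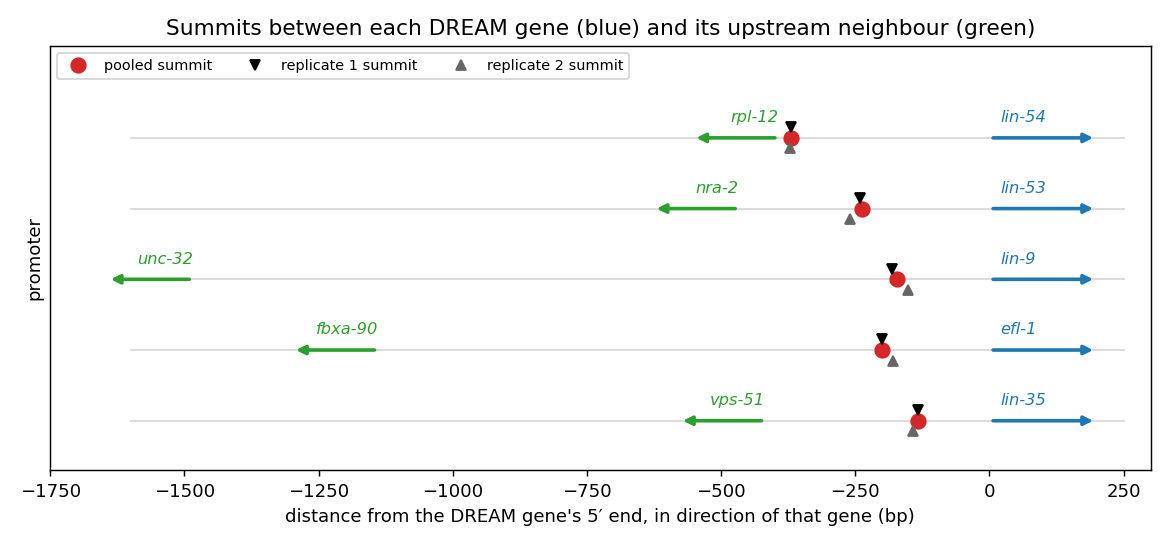
Position of the pooled, replicate 1 and replicate 2 summits (bp) relative to the 5′ end of the 5 DREAM genes with a thresholded promoter peak (blue arrows), with the 5′ end of the nearest upstream protein-coding gene (green arrows). All 5 neighbours are on the opposite strand, the replicate summits differ by 2 to 30 bp, and the lin-54 summit stands beside rpl-12.

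The gene for the DP partner, dpl-1, had no candidate in its promoter window in the pooled list or in either replicate. The nearest pooled candidate was 2141 bp upstream (70.3, rank 9408) and 61 bp inside T23G7.3, whose 5′ end is 2080 bp from that of dpl-1. Replicate 1 had a summit within 100 bp of that candidate, 2052 bp upstream of dpl-1 (37.4, rank 11224). The nearest summit of replicate 2, 1979 bp upstream (34.5, rank 13834), was more than 100 bp from the candidate. Both replicate summits lay between genes, upstream of T23G7.3. At lin-37, a MuvB subunit gene, the pooled list had no candidate in the promoter window, and replicate 1 had 1 weak candidate 926 bp upstream (31.0, rank 18706). Its strongest pooled candidate lay 4936 bp downstream of the 5′ end (96.8, rank 3005), which is 139 bp upstream of ger-1. Neither gene thus had more than weak candidates, but a candidate list of fixed length shows no value below its last entry (43.4 in the pooled list), so binding below that level cannot be seen.

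The short MuvB gene lin-52 was the nearest to a sixth peak. Its highest promoter candidate in the pooled list (111.5, rank 1814) had its summit in an exon, 186 bp downstream of the annotated 5′ end and 6 bp from the 5′ end of another annotated transcript of the gene. In replicate 1 a candidate stood at 179 bp (79.8, rank 771), among the highest 945. In replicate 2 the candidate nearest to it was 52 bp downstream (32.9, rank 15857), and the highest in the window was 849 bp upstream (62.7, rank 1805) and 167 bp upstream of ZK632.9. The replicates therefore did not share a strong summit at lin-52. The region held 8 pooled candidates in 10.7 kb (7.50 per 10 kb), the densest of the 8 regions.

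**Figure D3:**
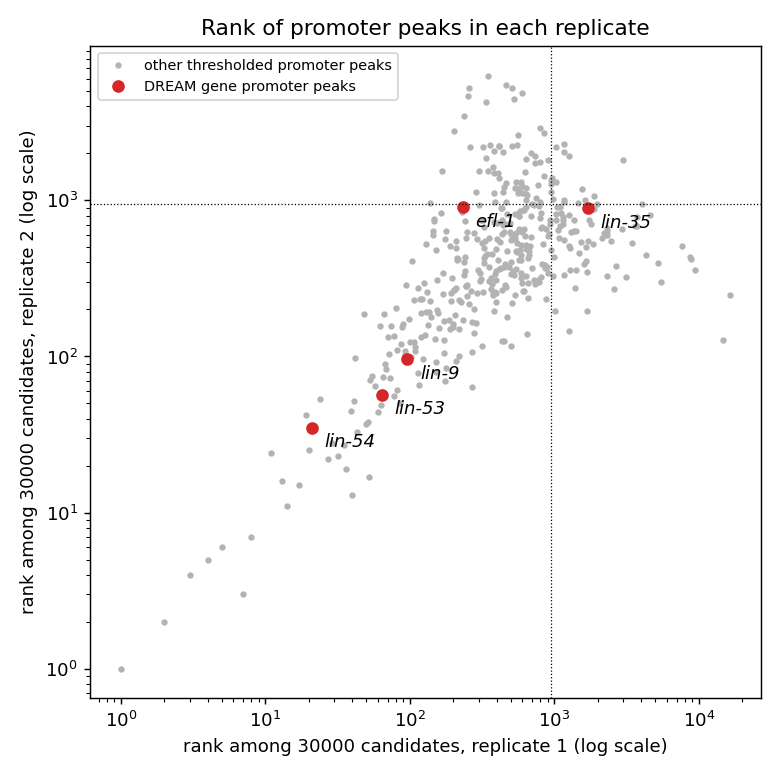
Rank in replicate 1 against rank in replicate 2 (log scales, 1 is the highest signal) for thresholded promoter peaks matched in both replicates, with the 5 DREAM promoter peaks in red. Dotted lines mark rank 945; lin-54, lin-53 and lin-9 lie between rank 21 and rank 96 in both replicates, while efl-1 (232 and 909) and lin-35 (1697 and 889) lie near the lines.

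The calls changed with the replicate used at lin-35 and lin-52 alone among the 8 genes. With the highest 945 candidates of replicate 2 in place of the thresholded set, the same 5 genes were called (2.67% of all genes). With those of replicate 1, 5 genes were called again (2.61% of all genes), but lin-52 took the place of lin-35. With the 472 thresholded peaks of highest signal 4 genes were called, all but lin-35 of the 5 (1.63% of all genes). When each summit counted only for the protein-coding gene with the nearest 5′ end, 3 genes were called (lin-9, efl-1 and lin-35). That rule had no promoter window and no limit of distance. Its share of all genes, 4.28% (854 of 19973), is therefore not the same measure as the shares above. The summits at lin-54 and lin-53 lay nearer to rpl-12 and nra-2. For lin-53 the difference was 238 against 229 bp.

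Most of the weaker candidates, in the 8 regions and over the genome alike, were not shared by both replicates. The regions held 36 pooled candidates, 37 of replicate 1 and 32 of replicate 2. All 5 thresholded summits had a summit of each replicate within 100 bp, as did 93.1% of the 945. Of the other 31 pooled candidates, 7 (22.6%) had one in both replicates, beside 31.0% of the other pooled candidates of the genome. In the promoter windows, a pooled candidate, whatever its rank, was present at 6 of the 8 genes (75.0%), beside 32.7% of all genes, the sixth being lin-52.

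The 5 peaks were alike in position and in gene arrangement, and both traits were common among called genes. Every summit lay between genes and upstream of the 5′ end, at 133 to 370 bp. Of all 566 genes with a thresholded promoter summit, 92.4% had it upstream, and over all 566 the summit was at a median of 263 bp upstream (interquartile range 132 to 509 bp). In each of the 5 cases the nearest 5′ end upstream belonged to a gene on the opposite strand. So it did at 361 of the 566 called genes (63.8%) and at 45.9% of all genes, of which 3.94% were called. It did at 6 of the 8 DREAM genes, with dpl-1 as the one that had no peak. Genes with a same-strand neighbour upstream had one in 1.90% of cases, and lin-37 and lin-52 were of this kind. The summit was in the window of another gene at 4 of the 5, beside 47.3% of all 566 called genes. No tRNA, snRNA, snoRNA or miRNA gene lay within 200 bp of any of the 5 summits. In worms many annotated 5′ ends are sites of trans-splicing, so a distance to the 5′ end need not be a distance to the start of transcription.

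Peaks of closely matching strength stood at genes of varied function. Likeness was the larger of the absolute log2 ratios of ranks in the 2 replicates, over thresholded promoter peaks, and the 2 nearest peaks are given for each gene. For lin-54 they were the peaks of hsr-9 and the small-subunit ribosomal protein gene rps-19 (0.26) and of set-16 and drr-2 (0.47). For lin-53 they were those of ddp-1 and ttc-7 (0.19) and of rps-12 and ska-3 (0.22). For lin-9 they were those of ntl-2 (0.07) and of trap-3 and sec-61.B, genes of protein entry into the endoplasmic reticulum (0.09). For efl-1 they were those of W03F8.4 (0.11) and of spk-1 and rheb-1 (0.30), and for lin-35 those of rab-14 and nipi-3 (0.15) and of H37A05.4 (0.17). With 2 replicates this likeness says only that the peaks ranked alike.

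Genes around DREAM in the same pathways were called at a share near that of all genes. Over 6 lists with 61 gene entries, 3 had a thresholded promoter peak (4.92%, beside 2.83% of all genes). Of 11 other synMuv B genes, 1 was called, gei-4, with a summit 102 bp upstream (signal 163.9, 99.1 and 87.5 in the pooled list and replicates 1 and 2). Of 12 G1 regulators and E2F relatives, which include the cyclin D gene cyd-1 and its kinase gene cdk-4, 1 was called: lin-23, a gene for an F-box protein that restrains cell division, had a summit 957 bp upstream (154.3, 79.1 and 75.5). Of 19 replication and mitosis genes, of the kind that E2F and DREAM are known to bind in animals, 1 was called: pcn-1, which encodes the polymerase clamp PCNA, had a summit 280 bp upstream (382.3, 247.4 and 135.8, pooled rank 76). None of 7 Mec and NuRD genes, 4 synMuv A genes and 8 germline genes was called. The 8 DREAM genes, lin-53 among them, were left out of all 6 lists. The pooled signal of pcn-1 lay between those of lin-9 and lin-53, but its replicates differed more, with rank 48 in replicate 1 and 188 in replicate 2. The pooled signals of gei-4 and lin-23 lay between those of lin-35 and efl-1. Pooled candidates of any rank were present at 29 of the 61 (47.5%, beside 32.7% of all genes), with 8 of 11 other synMuv B genes and 0 of 4 synMuv A genes at the ends of the range.

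**Figure D4:**
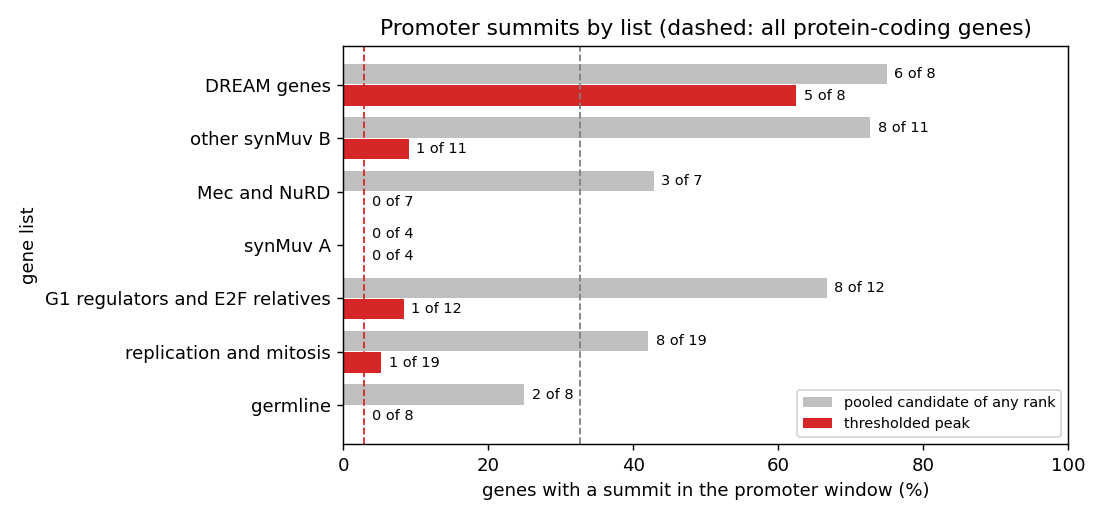
Percent of the genes of each list with a summit in the promoter window, for thresholded peaks (red bars) and pooled candidates of any rank (grey bars), with counts beside the bars. Dashed lines give the same shares over all protein-coding genes (2.83% and 32.7%); the DREAM genes stand at 5 of 8 for thresholded peaks, and the other lists at 0 or 1 gene each.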

How the data were processed

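ChIP-seq of tagged SPR-3 was deposited as 4 interval lists on ce11: 30000 candidates for each of the 2 replicates and for their pool, and 945 thresholded peaks. Per the labels and deposited notes, 1 shared control was used throughout, and the 945 peaks derive from the 3 candidate lists. The signal column is the authors' value of ChIP against control, whose scaling is not stated in the sources, so signals were compared within a list and ranks between lists. The deposited −log10 q-value was only described. Summit offsets are the authors'. The aligner, caller and cutoff used are not given in the sources, and no read counts were used, so the depth is unknown.

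Summits (start plus offset, 1-based) were set against the Ensembl release 115 WBcel235 annotation with Python 3.11.15, numpy 2.4.6 and pandas 2.3.3. Gene calls were checked on simulated summits. A thresholded peak was matched in a replicate by an overlap of at least 1 bp, taking the nearest summit. Named were all 8 genes, genes sharing their summits, called genes of the 6 lists, the 2 most alike peaks per gene, and small RNA genes within 200 bp. One list symbol, egr-1, matched no gene. Sequence was not analysed at lin-35 and lin-53. The members and lists were chosen with earlier results of these data known, and no test was made. Alternatives were the promoter window, transcript 5′ ends, interval overlap, the nearest gene, a stricter set and each replicate alone.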

Additional observations from a re-analysis of the deposited data

How the results depend on the processing

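The count of 5 genes with a thresholded promoter summit was 5 with windows of 500 bp upstream to 100 bp downstream or 2000 bp upstream to 500 bp downstream, with all transcript 5′ ends, with interval overlap and with either replicate left out. It was 4 with the 472 peaks of highest signal. With the nearest 5′ end only it was 3, because the summits at lin-54 and lin-53 lay nearer to rpl-12 and nra-2. The count over the gene body and flanks was 5 with 2 kb (7.47% of all genes) or 10 kb (18.7%) either side and 4 with the 472 peaks (6.72%). The count with a pooled candidate, 6, was 5 with the narrow window (19.8% of all genes) and 7 with the wide window (51.2%) or replicate 1 alone (31.9%). The share of all genes called moved from 2.83% to 2.03% with the narrow window, 4.02% with the wide window, 3.08% with transcript 5′ ends, 3.19% with interval overlap and 1.63% with the 472 peaks. It stayed at 2.61% to 2.67% with 1 replicate. With the nearest gene, a rule that has no promoter window, it was 4.28%.

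Among the other lists, the synMuv B count of 1 became 0 with the 472 peaks, the Mec and NuRD count of 0 became 1 with the wide window, and the G1 count of 1 became 0 with the narrow window and with the 472 peaks, and was 0 to 1 with 1 replicate left out. Ranks with 1 replicate left out ran from 889 to 1697 for lin-35, 232 to 909 for efl-1 and 57 to 64 for lin-53, and both were 96 for lin-9 (pooled 89). For lin-52 they ran from 771 to 1805 but belong to different summits, and the replicate 2 candidate nearest to the replicate 1 summit had rank 15857. The cause was not tested. No paired analysis was possible because there is only 1 group. The lists give no depth, so how weak a site could have been seen at dpl-1 and lin-37 is unknown. The lin-52 candidate was among the highest 945 in replicate 1 alone (−log10 q-value 2.15 in that list).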
